A study of Mus musculus with 4 samples.

Results

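Caspases are cysteine proteases that carry out apoptosis and pyroptosis, and cFLIP, encoded by Cflar, is the catalytically inactive relative of caspase-8. This account covers 8 genes of this family, Casp8, Cflar, Casp2, Casp9, Casp6, Casp1, Casp4 and Casp12, out of 50600 gene rows counted. They were taken by name from the gene IDs of the deposited tables, by a list of names and with no threshold on a measured value. RNA had been sequenced from mouse primary cells of strain C57BL/6NJ labelled T-helper 17 (Th17), the CD4 T cells that make interleukin 17. The 4 libraries were biological replicates 1 to 4 of 1 group, with a biosample record for each and 1 donor record shared by all. The labels named no genotype beyond the strain, no treatment, and gave age, sex and stage as unknown or not collected. They linked a protocol for differentiating CD4 T cells, and the alignment names in the file headers carried an hour tag of 0 for every library. No sample served as a control. Levels were therefore compared between genes within a library and between the 4 libraries. Since nothing said that the replicates came from separate animals, the tests below measured only the spread between these 4 samples, which may be technical.

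The libraries held 29041979 to 48808978 counted fragments. Marker genes were checked against the label. All 10 T-cell marker genes reached 1 TPM (a level corrected for gene length and library size, and scaled to a fixed total per library) in every library, with a median of 922 TPM. Only 5 of 11 Th17 marker genes did, led by Il17f at 9.83 ± 3.10, Il17a at 4.22 ± 1.53 and Rora at 2.47 ± 0.372 TPM (SD, n = 4). All 9 naive T-cell marker genes did, led by Tcf7, Ccr7 and Il7r, and they summed to 7332 to 8185 TPM against 18.5 to 30.3 TPM for the Th17 list. The defining Th17 genes were thus low in libraries that carry that label. Of the markers of other cells, 0 of 8 B-cell, 0 of 8 granulocyte, 0 of 7 dendritic-cell, 2 of 10 monocyte and macrophage (Cd68 and Itgam) and 1 of 7 NK-cell markers (Klrd1) reached 1 TPM in every library. Klrd1 was at 44.6 ± 4.86 TPM, Cd68 at 11.1 ± 2.81 TPM and Itgam at 1.61 ± 0.224 TPM (n = 4). The B-cell markers Cd79b and Cd79a missed the cut-off but averaged 1.46 ± 0.543 and 1.37 ± 0.321 TPM (n = 4). They ranged from 0.919 to 1.93 and from 0.906 to 1.64 TPM. Ly6g, Clec9a, Xcr1, Cd14 and Fcgr1 had 0 counts.

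Caspases are made as inactive precursors. Initiator caspases are switched on when adaptor proteins bring their copies together: caspase-8 by FADD beneath death receptors, caspase-9 by APAF1 after cytochrome c leaves mitochondria, and caspase-2 by PIDD1 and CRADD. Executioner caspases, here caspase-6, are then cut and cleave cell proteins. The inflammatory caspases act in inflammasomes and free the pore-forming part of gasdermin D. In T cells caspase-8 and cFLIP are known for setting the balance between survival, apoptosis after Fas engagement and RIPK3-dependent necroptosis.

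The feature that separates Cflar from the caspases can be read in the coding sequence. In each caspase a cysteine performs the cleavage, inside a stretch that reads glutamine, alanine, cysteine, any residue, glycine. The 39 bases around that codon are shown to compare the 8 genes, on the coding strand, from GENCODE M21 transcripts on mm10. The capitals mark the catalytic codon, or in Cflar the codon at the same place.
Casp8: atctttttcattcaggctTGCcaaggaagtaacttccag
Cflar: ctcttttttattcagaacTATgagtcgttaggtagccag
Casp2: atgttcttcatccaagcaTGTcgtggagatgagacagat
Casp9: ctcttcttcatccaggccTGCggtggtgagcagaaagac
Casp6: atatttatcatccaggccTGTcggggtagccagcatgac
Casp1: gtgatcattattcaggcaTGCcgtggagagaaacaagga
Casp4: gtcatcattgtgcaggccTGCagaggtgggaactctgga
Casp12: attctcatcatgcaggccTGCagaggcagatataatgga

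All 7 caspases, Casp12 included, held this stretch in frame, with TGC or TGT, the codons of cysteine. In them the place was found by a codon pattern that itself requires TGC or TGT, so the search fixed the cysteine. Cflar had TAT, a tyrosine codon, and 0 of its 4 complete coding transcripts held the pattern in frame, against 4 of 4 for Casp8. The Casp8 codon is number 382 of 500 and lies in exon 9 of 10, at chr1:58844619-58844621. The Cflar codon is number 365 of 484 and lies in exon 10 of 11, at chr1:58752623-58752625. It was placed by aligning the 2 translated sequences, which were identical at 31.6% of 437 aligned positions. Among the 28 pairs, Casp1 with Casp4 was the most similar, at 46.5% of 368 positions, and the 3 inflammatory genes were 45.0% to 46.5% identical to each other. All 8 genes lie on the plus strand. Casp1, Casp4 and Casp12 follow each other on chromosome 9 with gaps of 1562 and 8646 bases, and Cflar lies 36489 bases upstream of Casp8 on chromosome 1.

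The 8 genes spanned from near 0 to the upper levels of the transcriptome. Reaching 1 TPM in every library were 6 of the 8 (75.0%), beside 9926 of 21751 nuclear protein-coding genes (45.6%). Their median level was 15.4 TPM, beside 0.355 TPM for all nuclear protein-coding genes. The family together made up 388 to 415 TPM per library, and Casp8 alone held 61.7% to 63.3% of that sum. With the longest transcript as the length the share was 49.8% to 51.5%, with the longest principal transcript 47.1% to 48.97%, and in fragments with no length correction 33.9% to 35.7%. In bulk RNA, fewer cells that express a gene and less of its RNA per cell cannot be told apart.

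**Figure D1:**
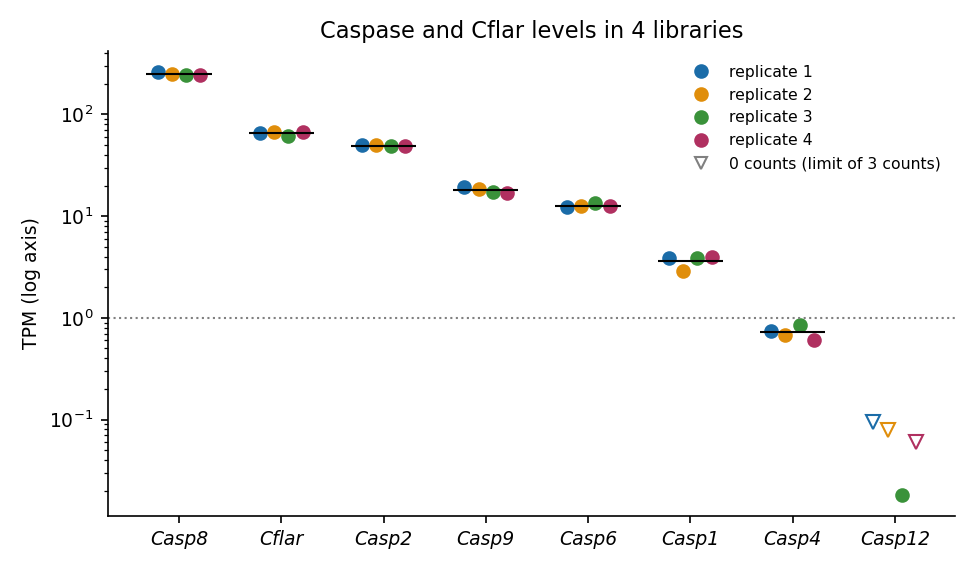
Level of each gene in TPM (log axis) in replicates 1 to 4, with a line at the mean of each gene except Casp12 and a dotted line at 1 TPM. Open triangles mark libraries with 0 Casp12 counts, drawn at the level that 3 counts would give. Casp8 stands at 242 to 262 TPM, Casp4 lies below 1 TPM in all 4 libraries, and no 2 genes overlap.

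Casp8 (ENSMUSG00000026029, chr1:58795374-58847503), the initiator that death receptors recruit and that also restrains necroptosis, had the highest level of the family. It stood at 262, 252, 242 and 243 TPM in replicates 1 to 4, from 6320, 7241, 9969 and 9078 fragments. Its mean of 250 ± 9.39 TPM (SD, n = 4) was above 97.5% of nuclear protein-coding genes. Replicate 1 was highest and replicate 3 lowest, and these differed 1.08-fold.

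Cflar (ENSMUSG00000026031, chr1:58711508-58758884), whose protein pairs with caspase-8 and limits its activation, stood at 66.3, 67.8, 61.7 and 67.3 TPM. Its mean was 65.8 ± 2.80 TPM (n = 4), above 86.9% of nuclear protein-coding genes, and replicate 3 was the low library. In each library Casp8 was above Cflar per length, by 3.61 to 3.95-fold. The mean log2 ratio of Cflar over Casp8 was -1.92 ± 0.06 (SD, n = 4), lower in 4 of 4 libraries. The exact two-sided sign-flip permutation test gave p = 0.13, the smallest that 4 libraries allow, so no gene pair here could pass 0.05.

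The direction within this pair rested on gene length. Cflar drew more fragments than Casp8 in every library, 37668 against 32608 in all, over an annotated exon length of 12669 bases against 2893. Without a length correction Cflar was the higher, at 239 ± 7.43 against 207 ± 7.65 CPM (counts scaled to a fixed library total with no correction for length), and the log2 ratio of Cflar over Casp8 was 0.21. With the longest annotated transcript as the length, 6572 and 2585 bases, the log2 ratio was -1.14. Casp8 therefore led Cflar on each length-corrected scale tried, by a factor that depended on which transcripts were assumed.

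**Figure D2:**
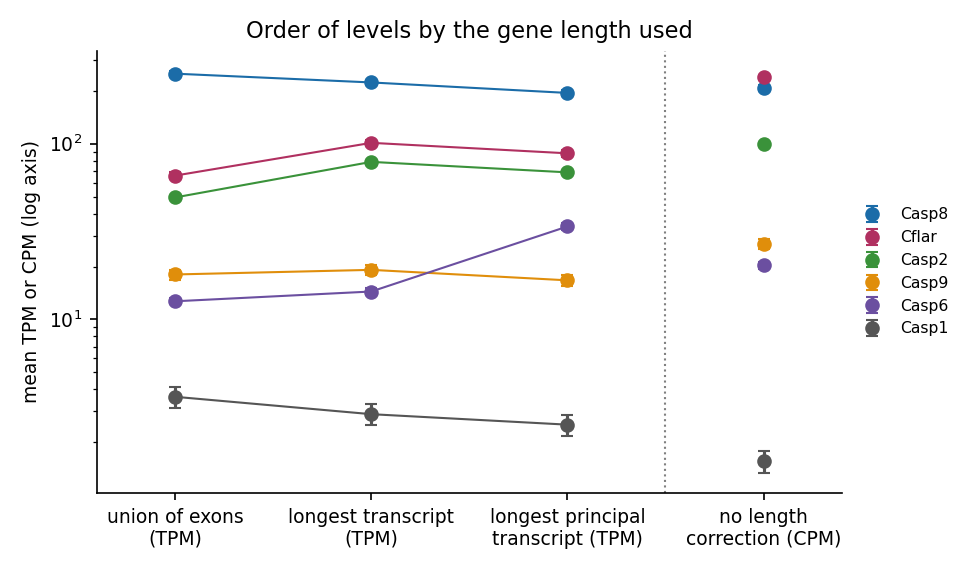
Mean level of the 6 higher genes (log axis, bars show SD over 4 libraries) with 3 gene lengths, in TPM, and with none, in CPM to the right of the dotted line. Cflar passes Casp8 only without a length correction, and Casp6 passes Casp9 only with the longest principal transcript, at 33.8 against 16.7 TPM.

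Casp2 (ENSMUSG00000029863, chr6:42264985-42282508), the initiator of the PIDDosome, which responds to DNA damage and to extra centrosomes, was the third in level. It stood at 49.7, 49.96, 48.5 and 49.5 TPM in replicates 1 to 4. The mean was 49.4 ± 0.638 TPM (n = 4), and this was the steadiest of the 8 genes, with a coefficient of variation of 1.29% where counting error alone gives 1.63%. Cflar was above it by 1.27 to 1.36-fold in the 4 libraries, a log2 ratio of 0.41 ± 0.04 (SD). Per length, this was the smallest step between neighbours in the order, and the ranges of the pair did not overlap. In CPM the log2 ratio of Cflar over Casp2 was 1.26, and that of Cflar over Casp8 was smaller, at 0.21.

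Casp9 (ENSMUSG00000028914, chr4:141793612-141815976), the initiator of the mitochondrial route, stood at 19.5, 18.4, 17.3 and 16.9 TPM. Its mean was 18.02 ± 1.21 TPM (n = 4), above 68.9% of nuclear protein-coding genes. Replicate 1 was the highest and replicate 4 the lowest, 1.16-fold apart. Casp2 was above Casp9 by 2.54 to 2.94-fold per union exon length, a mean log2 ratio of 1.45. That ratio was 2.04 with the longest transcript and 1.90 in CPM. Casp9 was the only one of the 8 to share exon bases with another gene, 94 bases or 1.81% of its exons with Cela2a and Ctrc on the opposite strand. Both of those genes had 0 counts in every library.

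Casp6 (ENSMUSG00000027997, chr3:129901425-129914103), the executioner that cuts lamin A, stood at 12.2, 12.6, 13.4 and 12.5 TPM. Its mean was 12.7 ± 0.503 TPM (n = 4), with replicate 3 the highest and replicate 1 the lowest. Casp9 was above Casp6 by 1.29 to 1.60-fold, a log2 ratio of 0.50 ± 0.14 (SD), in 4 of 4 libraries. This order also rested on length. The exons of Casp6 cover 5584 bases in all but its longest principal transcript only 1456, and with principal transcripts the log2 ratio of Casp9 over Casp6 was -1.01.

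The inflammatory caspases were the 3 lowest of the 8. Casp1 (ENSMUSG00000025888, chr9:5298517-5307265), which matures interleukin 1β and interleukin 18 and cuts gasdermin D, stood at 3.85, 2.89, 3.85 and 3.93 TPM. The mean was 3.63 ± 0.494 TPM (n = 4), from 48, 43, 82 and 76 fragments. Replicate 2 lay apart from the other libraries, which spanned 3.85 to 3.93 TPM. Monocyte and macrophage markers did not move together there: their summed level was highest in replicate 2, at 16.8 TPM, of which Cd68 made 14.9 TPM, while their mean log2 deviation was lowest there, at -0.28. Their part in the Casp1 level was not tested. Casp6 was above Casp1 by 3.17 to 4.37-fold per union exon length, a mean log2 ratio of 1.79. That ratio was 2.29 with the longest transcript, 3.70 with the longest principal transcript and 3.63 in CPM.

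Casp4 (ENSMUSG00000033538, chr9:5308828-5336783), the mouse caspase that senses lipopolysaccharide inside the cell, stood at 0.744, 0.678, 0.853 and 0.605 TPM. Its mean was 0.720 ± 0.105 TPM (n = 4), below 1 TPM in every library. The 4 libraries held 122 fragments in all, and the coefficient of variation of 14.6% was below the 18.5% that counting error alone gives. Casp1 was above Casp4 by 4.26 to 6.49-fold per union exon length, a mean log2 ratio of 2.18. The size depended on length: the log2 ratio was 1.29 with the longest transcript, 0.91 with the longest principal transcript and 0.94 in CPM. With the longest principal transcript as length, Casp4 was above 1 TPM in every library, at 1.29 ± 0.191 TPM.

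Casp12 (ENSMUSG00000025887, chr9:5345430-5373032), a neighbour of both on the chromosome, was barely seen. Replicates 1, 2 and 4 had 0 counts, which allowed up to 0.0938, 0.0787 and 0.0604 TPM, and replicate 3 had 1 count, or 0.0183 TPM. Every library thus held fewer than the 3 counts taken as a floor. The floor bounds what a count of 0 allows and is not a detection limit, since replicate 3 had 1 count. Absence of Casp12 RNA was not shown. Per length, the summed Casp4 counts were 126 times those of Casp12, with an exact 95% interval of 22.2 to 5028, and the summed Casp8 counts were 43282 times, with an interval of 7768 to 1709600. These intervals and floors cover counting error only.

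Every one of the 28 gene pairs kept its direction in 4 of 4 libraries, and no pair of ranges overlapped, so no neighbours in the order were within each other's spread. The order was Casp8, Cflar, Casp2, Casp9, Casp6, Casp1, Casp4 and Casp12. With every pair in 1 direction in all 4 libraries, leaving out 1 library could not change it, so that is no further check. With principal transcript lengths Casp9 and Casp6 changed places, and without a length correction Cflar and Casp8 did. In either case 27 of the 28 pairs kept their direction.

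The spread of the family between the libraries was small. Of 12464 genes tested with edgeR for variation above the trend of genes of like abundance, 24 were called (0.193%) at a Benjamini-Hochberg adjusted p under 0.05. None of the 7 family members that passed the count filter was called, with edgeR adjusted p of 0.995 to 0.999. Of these, 0 had an unadjusted p under 0.05, and DESeq2 marked 0. Casp12 did not pass the filter. All 7 lay below the trend, as did 55.4% of all genes tested. Their ratios of spread to trend ran from 0.0387 for Casp2 and 0.219 for Casp8 to 0.503 for Casp9 and 0.541 for Cflar, with a median of 0.409 beside 0.871 over all genes. Of the called genes in the heat shock and interferon lists below, the lowest ratio was 40.0, for Hsp90ab1. Variation well above the trend could thus go uncalled with 4 libraries.

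**Figure D3:**
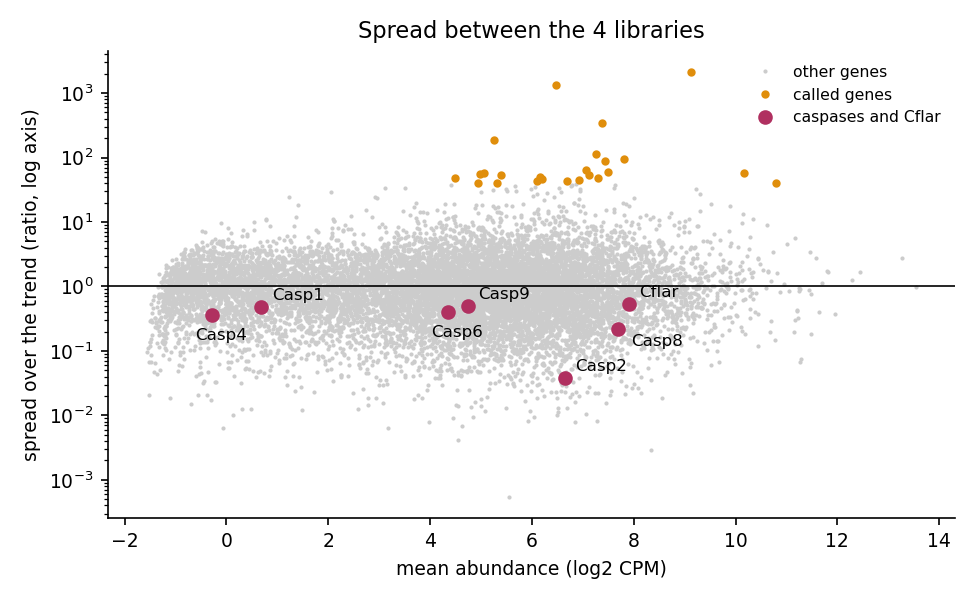
Ratio of each gene's spread to the trend (log axis) against mean abundance in log2 CPM for the 12464 genes tested. The 24 called genes lie far above the line at 1, and the 7 tested caspase genes lie below it, Casp2 lowest at 0.0387.

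The libraries did differ in other genes. The heat shock and interferon lists were chosen with earlier results of these data known and are no independent evidence. All 9 heat shock genes listed were among the 24, and 2 to 9 of them were called under the alternative edgeR settings, the fewest with a prior that was not robust, and 4 without replicate 3. Their mean deviation from the 4-library mean, on the log2 scale, was 0.92 in replicate 4 and -0.58 in replicate 1. Of 14 interferon-stimulated genes, Ifit1 and Oas2 were called, with 0 to 10 called under the alternatives, and the mean deviation of the list was -0.62 in replicate 3. The 7 tested caspase genes stayed closer to their means. Casp8, Cflar, Casp2, Casp9 and Casp6 deviated by 0.12 at most, and the widest deviations were those of Casp1 in replicate 2, at -0.31, and of Casp4 in replicate 3, at 0.23. In replicate 4, where the heat shock genes were highest, Casp8 deviated by -0.04 and Cflar by 0.03.

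**Figure D4:**
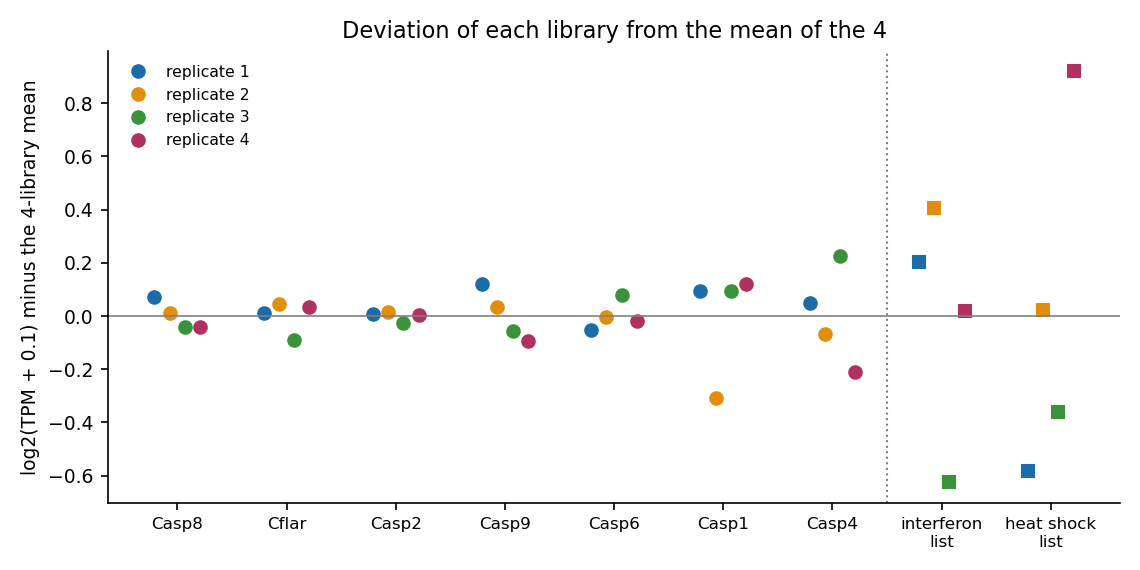
Deviation of each library from the 4-library mean, in log2(TPM + 0.1), for 7 genes (circles) and as the mean over the interferon-stimulated and heat shock lists (squares). The heat shock list reaches 0.92 in replicate 4, whereas the 5 higher caspase genes stay within 0.12 of their means.

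The partners of each caspase were read from lists of pathway genes. Of 14 death receptor genes, 13 reached 1 TPM in every library, with a median of 39.2 TPM. The highest were Tnfrsf25, a death receptor of T cells, at 142 ± 8.61 TPM (n = 4), and Ripk3, the kinase of necroptosis, at 84.4 ± 3.46 TPM. Tnfrsf1a, Cyld and Tradd, which act in tumour necrosis factor signalling, were at 83.0, 80.8 and 63.2 TPM.

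Death receptors need FADD to recruit caspase-8, and Fadd was far lower than Casp8. It stood at 14.9, 13.0, 15.4 and 11.2 TPM, so that Casp8 was above it by 15.8 to 21.8-fold and Cflar by 4.01 to 6.03-fold. With the longest transcripts as lengths these were 17.6 to 24.3-fold for Casp8 and 7.74 to 11.6-fold for Cflar. In CPM they were 11.7 to 16.1-fold for Casp8 and 13.0 to 19.6-fold for Cflar. Fas, the receptor of the Fas ligand, was at 50.6 ± 2.66 TPM and Fasl, the ligand, at 15.7 ± 0.812 TPM (n = 4). Ripk1, the kinase that caspase-8 cuts to restrain necroptosis, stood 6.66 to 8.13-fold below Casp8. With the longest transcripts as lengths Ripk1 stood 7.86 to 9.60-fold below Casp8, and in CPM 3.14 to 3.83-fold. These partner ratios and those given below, and the values of Fas, Ripk1, Il1b and Il18, were chosen after the values were seen.

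Mlkl, which forms the membrane pores of necroptosis, was the exception in the list. It had 32 counts over the 4 libraries and stood at 0.313, 0.0437, 0.122 and 0.705 TPM. These rest on 6, 1, 4 and 21 counts, so that counting error is wide. Ripk3 was above Mlkl in every library.

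All 6 apoptosome and mitochondrial genes reached 1 TPM in every library, with a median of 27.3 TPM. Aifm1 was the highest, at 34.5 ± 3.56 TPM, followed by Htra2 at 30.8, Endog at 27.7 and Diablo at 27.0 TPM. Apaf1, the scaffold that activates caspase-9, stood at 19.5, 19.7, 18.8 and 19.2 TPM, and Cycs, which encodes cytochrome c, at 16.1 ± 1.09 TPM (n = 4). The ranges of Casp9 and Apaf1 overlapped, and the log2 ratio of Casp9 over Apaf1 was -0.10 ± 0.08 (SD), with Casp9 above in 1 of 4 libraries (exact sign-flip permutation p = 0.25). With the longest transcripts as lengths Casp9 was below Apaf1 in 4 of 4 libraries, at -0.14. Without a length correction Casp9 was also below Apaf1 in 4 of 4 libraries, at a log2 ratio of -0.90.

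Both PIDDosome genes were measured and both were lower than Casp2. Pidd1, the scaffold, was at 9.42 ± 0.734 TPM and Cradd, the adaptor, at 5.52 ± 0.352 TPM (n = 4). Casp2 was above Pidd1 by 4.79 to 5.76-fold and above Cradd by 8.53 to 9.58-fold, in 4 of 4 libraries each. With the longest principal transcripts as lengths these were 7.11 to 8.54-fold and 5.95 to 6.69-fold. In CPM they were 7.47 to 8.98-fold and 12.6 to 14.2-fold.

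Inhibitor of apoptosis genes were split by level. Of 9 genes, 5 reached 1 TPM in every library. Birc6, a large ubiquitin ligase, was at 131 ± 9.76 TPM, Birc2 at 85.2 and Birc3 at 80.8 TPM, and Xiap, which blocks caspase-9 directly, at 44.6 ± 4.59 TPM (n = 4). Xiap was lowest in replicate 3, at 39.5 TPM. The Naip genes, whose products are inflammasome sensors of bacterial proteins, were low: Naip2 was at 3.77 ± 0.293 TPM, Naip5 had 9 counts in all, Naip6 had 30 and Naip1 had 0.

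All 9 genes of caspase substrates were at 1 TPM or more in every library. Acin1, a nuclear protein that caspases cut during chromatin condensation, was at 233 ± 4.67 TPM, Rock1, the kinase behind membrane blebbing, at 133 ± 9.71 and Parp1 at 82.8 ± 2.10 TPM (n = 4). Lmnb1 and Panx1 stood at 51.3 and 41.3 TPM. The lowest were Dffb at 33.3, Xkr8, a scramblase, at 5.89, and Lmna, the lamin gene whose product caspase-6 cuts, at 2.06 ± 0.560 TPM. Lmna was highest in replicate 2, at 2.81 TPM, and lowest in replicate 3, at 1.49 TPM.

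Of the inflammasome and pyroptosis genes, 5 of 15 reached 1 TPM in every library, with a median of 0.203 TPM. The high members were Gsdmd at 209 ± 14.0, Pycard at 71.5 ± 3.86, Nek7 at 48.9 ± 2.12, Aim2 at 31.4 ± 2.09 and Ninj1 at 16.8 ± 3.14 TPM (n = 4). These encode the pore protein, the adaptor, a partner of NLRP3, the sensor of cytosolic DNA and a protein of membrane rupture. Against them, Nlrp3 and Mefv had 0 counts and Nlrp6 had 1. Of the cytokine genes, Il1b had 2 counts and Il18 had 7.

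Casp1, which links the adaptor to the pore protein, was well below both. Pycard was above it in every library, with a log2 ratio of Casp1 over Pycard of -4.27 ± 0.25 (SD), and of -5.56 in CPM. Gsdmd was above Casp1 by 48.3 to 77.0-fold. Gsdmd stood at 213, 223, 209 and 190 TPM, while Casp1 did not exceed 3.93 TPM in any library.

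Of the paracaspase genes, which carry T-cell receptor signals to NF-κB, 2 are given. Malt1, the protease related to caspases, was at 128 ± 1.55 TPM and Bcl10, its adaptor, at 40.7 ± 2.30 TPM (n = 4). Per union exon length, Casp8 was above Malt1 by 1.91 to 2.04-fold and Cflar was below it in 4 of 4 libraries. Casp8 was above Malt1 by 2.69 to 2.88-fold with the longest transcript as the length, and by 1.09 to 1.16-fold in CPM. With the longest transcript as the length, and without a length correction, Cflar was above Malt1 in 4 of 4 libraries, by log2 ratios of 0.32 and 0.36, and with the longest principal transcript in 3 of 4.

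**Figure D5:**
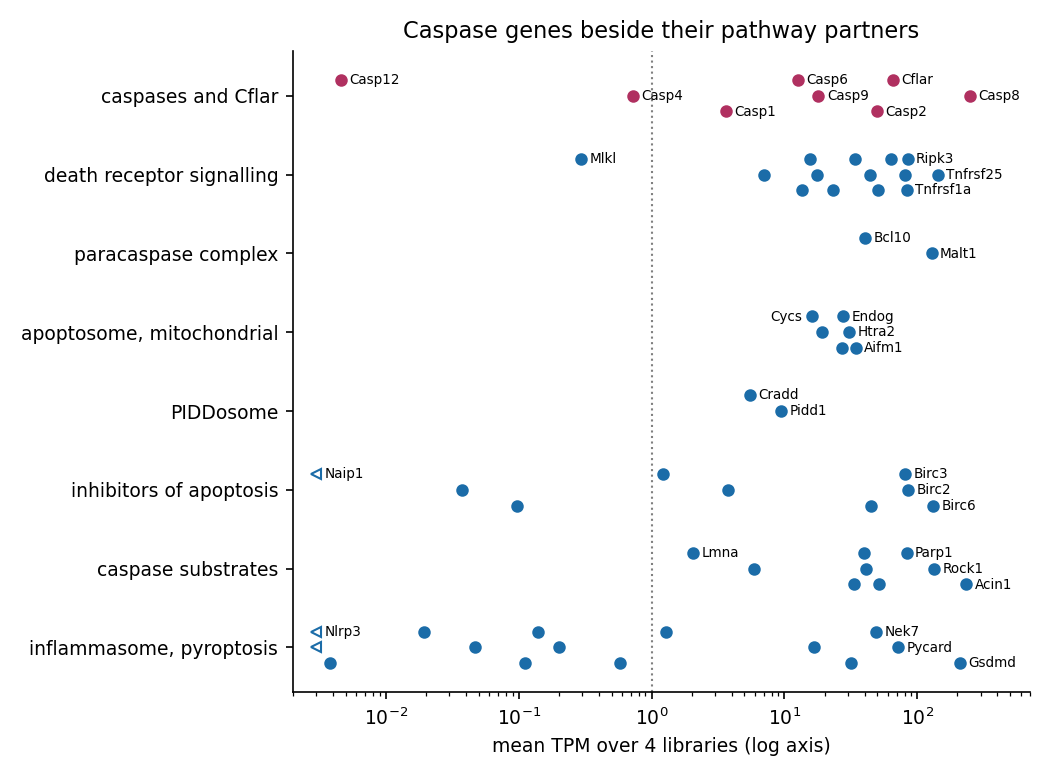
Mean TPM over 4 libraries (log axis) of the 8 genes and of their partners in 7 pathway lists, with the lowest and the 3 highest of each list named and a dotted line at 1 TPM. Open triangles at the left edge are genes with 0 counts. The inflammasome list spreads from 0 counts to Gsdmd at 209 TPM, and the apoptosome list stays between 16.1 and 34.5 TPM.

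For each of the 8, the pathway genes nearest in level over the 4 libraries were found by the root mean square difference in log2(TPM + 0.1). Only union exon lengths were used, and other lengths may give other neighbours. The mean of Cflar, for example, was 65.8 TPM with these and 101 TPM with the longest transcript as the length. Casp2 had the closest, Nek7 at 0.06 and Lmnb1 at 0.07. Cflar was nearest to Tradd at 0.10 and Pycard at 0.12, and Casp8 to Acin1 at 0.11 and Gsdmd at 0.27. Casp9 lay nearest to Apaf1 at 0.12 and Bid at 0.13, and Casp6 to Fadd at 0.19 and Fasl at 0.32. The low genes had looser neighbours, Naip2 at 0.26 and Cradd at 0.64 for Casp1, and Nlrc4 at 0.35 and Birc5 at 0.77 for Casp4. Naip1, Nlrp3 and Mefv, with 0 counts each, tied as the nearest to Casp12.

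The start regions of the 8 genes differed in CpG content. In windows from 250 bases before to 50 after the RefSeq start (GRCm38.p6), all 32851 promoters had a median of 7 CpG. All 8 genes were matched by symbol. Casp9 had 28, Casp2 26, Casp6 16 and Cflar 12, while Casp8 and both listed windows of Casp4 had 5 each and Casp1 and Casp12 had 3 each. Casp8, the highest per length, had fewer CpG in its window than the median promoter, and 38.0% of promoters had fewer still. Cflar, which drew the most fragments, had more than the median. The windows of Casp8 (chr1:58802252-58802551, plus strand) and Casp2 (chr6:42264735-42265034, plus strand) are shown for this contrast, with CpG in capitals. The Casp8 window lies inside the GENCODE gene, downstream of its outermost start, and which start these cells use cannot be read from gene counts.
Casp8: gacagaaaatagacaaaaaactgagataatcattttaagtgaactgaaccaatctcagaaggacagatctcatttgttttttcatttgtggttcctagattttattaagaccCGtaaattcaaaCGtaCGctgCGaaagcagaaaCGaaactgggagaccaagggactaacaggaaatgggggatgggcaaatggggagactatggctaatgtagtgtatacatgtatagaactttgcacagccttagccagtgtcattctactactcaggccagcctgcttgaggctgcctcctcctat
Casp2: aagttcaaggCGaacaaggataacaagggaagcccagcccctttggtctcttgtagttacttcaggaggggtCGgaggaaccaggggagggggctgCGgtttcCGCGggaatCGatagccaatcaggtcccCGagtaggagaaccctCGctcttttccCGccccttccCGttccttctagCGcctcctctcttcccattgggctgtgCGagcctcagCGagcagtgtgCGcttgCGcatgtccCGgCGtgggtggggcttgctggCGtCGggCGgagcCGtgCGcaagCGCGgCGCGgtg

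Motifs were searched on both strands. The GC box GGGCGG was found 4 times in the window of Casp9, 3 times in that of Casp6 and 2 times in that of Casp2, and 35.7% of all promoters held it. GAAANNGAA, part of the interferon-stimulated response element, was in the Cflar window 1 time and in 8.6% of promoters. TTCNNNGAA, the element that STAT factors bind and that reads the same on both strands, was in the Casp12 window 2 times and in 8.3% of promoters. These matches describe the letters of the windows and were not tested for binding.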

How the data were processed

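RNA-seq of 4 libraries gave, in the deposited tables, raw fragment counts per gene and the union exon length of each gene. Per the file headers, the authors used mm10 and the exons of GENCODE M13 with featureCounts 1.4.6-p4, counting read pairs with both ends mapped, with strand setting 2. The command line set no option for fragments that map to several places or genes. An aligner version was not given in the sources used here. Labels called the assay total RNA-seq, and the linked library protocol was titled as a poly(A)+ method.

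Symbols came from GENCODE M21 by ID without version, and 224 IDs matched none. TPM was computed here from counts and exon length. A count of 0 was taken to allow 3 counts. The caspase genes and the gene lists were chosen with earlier results of these data known. Genes named were the 8 caspase genes, the up to 5 highest and 3 lowest of each pathway list, any called, the 2 pathway genes nearest in level to each caspase gene, the up to 3 highest and all with 0 counts of each marker, interferon and heat shock list, and genes sharing caspase exons. Some of these are given only within their list's counts, and the text says where a gene falls outside this rule. Some genes are not reported here. Pairs were compared by exact sign-flip permutation tests of within-library log2(TPM + 0.1) ratios. Spread was tested with edgeR 4.0.16 (R 4.3.3) with TMM factors, its filter on low counts and a one-sided F test against the trend, tested on simulated data. DESeq2 1.42.0 was an alternative. Python 3.11.15, pandas 2.3.3, scipy 1.17.1 and Biopython 1.88 were used for the rest. Alternatives covered pseudocount, length, scaling, filters and leaving out each library. The libraries were compared in pairs for duplicates, and all pairs differed by more than counting error (chi-square per degree of freedom of 9.60 to 30.1).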

Additional observations from a re-analysis of the deposited data

Results flagged for a closer look

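Examined were 61 gene levels and log2 ratios of neighbouring genes. In 4 of the 61, 1 library lay apart from the other 3 by Dixon's test, and chance gives such a gap in about 1 group of 20. Casp1 was low in replicate 2, at 2.89 TPM against 3.85 to 3.93 TPM, from 43 fragments. Its coefficient of variation over the 4 libraries was 13.6%, and counting error alone gives 12.9%. Nlrc4, an inflammasome sensor gene, was low in the same library, at 0.446 TPM against 0.605 to 0.626 TPM. Casp12 stood at 0.0183 TPM in replicate 3 and at 0 in the others, from 1 count. Nlrp6 stood at 0.0152 TPM in replicate 4 and at 0 in the others, also from 1 count. A gene with counts in only 1 library is always flagged, so the rate of 1 in 20 does not hold for Casp12 and Nlrp6.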

How the results depend on the processing

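The log2 ratio of Cflar over Casp8 was -1.92. It was -1.91 with a pseudocount of 1 TPM, -1.14 with the longest transcript and -1.14 with the longest principal transcript as length, and 0.21 in CPM, which reversed it. Leaving out 1 library gave -1.95 to -1.90. Casp9 over Casp6 reversed with principal transcripts, at -1.01, and the other neighbouring pairs kept their direction under every alternative run. With the longest transcript as length, the ratio of each of those other pairs moved by more than its SD between libraries. The principal transcript lengths, CPM for the count of pairs, and the length alternatives for the Casp8 share and the partner ratios were chosen after seeing the data. Of the 8 genes, 6 reached 1 TPM in every library, 7 with principal transcripts and 6 to 6 with a library left out. In TMM-scaled CPM per kilobase 5 reached 1. That unit is not scaled to a fixed total, so 1 there is a stricter cut-off than 1 TPM and the counts are not alike. The count of 28 pairs of 1 direction was 27 at the lowest. With a library left out it was 28 to 28, and it could not have been otherwise.

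The number of genes called more variable than the trend was 24 with edgeR. It was 349 with no filter on low counts, 10 when only genes at 5 CPM or above on average were kept, 5 with a prior that was not robust, 6 with nuclear protein-coding genes only and 108 with DESeq2. Leaving out 1 library gave 7 to 86, the highest without replicate 4 and the lowest without replicate 3, and 13 without replicate 2. The cause was not tested. No caspase gene tested was called by edgeR or DESeq2. The stricter filter left Casp1 and Casp4 untested, and the lowest edgeR adjusted p of the 7 was 0.961 over the settings in which each was tested. No paired analysis was possible because all 4 libraries form 1 group. Casp1, Casp4 and Casp12 rest on 249, 122 and 1 fragments, which limits their precision. The share of fragments lost to other mapping places is unknown.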
